A study of Drosophila melanogaster with 2 samples.

Results

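The kinetochore and centromere genes described here are 10 genes chosen by name: 7 encode subunits of the outer kinetochore (Spc105R, Nuf2, Ndc80, Spc25, Mis12, Nnf1a and Nnf1b) and 3 encode proteins of centromere chromatin (cid, Cenp-C and cal1). They were taken from the 13945 protein-coding genes of the annotation, and their promoters were searched for peaks of Myb in whole Drosophila melanogaster embryos. The question is where Myb sits at these promoters, and whether the outer kinetochore and centromere chromatin genes differ in this. The embryos came from 1 transgenic line whose Myb carries a C-terminal GFP, were aged 0 to 24 h and were of both sexes pooled. Chromatin from 2 biological replicates was sonicated to 200 to 800 bp and precipitated with an antibody to GFP. Both replicates carry the transgene and come from the same line, and the labels put them in 1 group, so no condition could be compared. In chromatin of whole embryos, a peak present in fewer cells and a weaker peak in all cells cannot be told apart.

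The kinetochore is the protein assembly that ties each chromosome to spindle microtubules. Its outer layer, the KMN network, is built from Spc105R (the fly KNL1 protein, a platform for the spindle checkpoint), the Mis12 complex and the microtubule-binding Ndc80 complex. It stands on chromatin marked by the centromeric histone H3 variant Cid (CENP-A), which the chaperone Cal1 deposits and to which Cenp-C binds. Myb binds DNA as a part of Myb-MuvB, a complex known in flies for its action at promoters of genes used in the G2 and M phases of the cell cycle.

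The sequences at these promoters are shown first, so that the words they hold can be set beside their peaks. Each runs 5′ to 3′ along the gene strand, on build dm6, and holds the bases around the summit, or before the transcription start site (TSS) where no summit was found, without any annotated exon. The stretches are unequal. They reach up to 100 bp from the summit for Spc105R and Nuf2 and up to 50 bp for Ndc80, Spc25 and Cenp-C. Where no summit was found they hold 200 bp. The number of capitalised words therefore cannot be compared between them, and counts in windows of equal length are given below. Capitals mark words searched on both strands: the cell cycle homology region (CHR, TTTGAA or TTCGAA), the Myb site (CAACGG or TAACGG), the E2F site (TTTCCCGC, TTTGGCGC, TTTGCCGC or TTTCGCGC) and the DREF site (TATCGATA). The stretches are chr3L:20800261-20800409 (plus strand) for Spc105R, chr2L:7065838-7066025 (minus) for Nuf2, chrX:13612063-13612130 (minus) for Ndc80, chr3R:12961644-12961709 (plus) for Spc25, chr3R:8563987-8564087 (plus) for Cenp-C, chr2L:810377-810576 (plus) for Nnf1b and chr3R:17088080-17088279 (plus) for cal1. The first 5 have a called peak and the last pair have none.
Spc105R: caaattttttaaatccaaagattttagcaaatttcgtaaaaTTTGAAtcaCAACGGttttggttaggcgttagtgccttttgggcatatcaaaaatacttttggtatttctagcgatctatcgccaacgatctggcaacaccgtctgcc
Nuf2: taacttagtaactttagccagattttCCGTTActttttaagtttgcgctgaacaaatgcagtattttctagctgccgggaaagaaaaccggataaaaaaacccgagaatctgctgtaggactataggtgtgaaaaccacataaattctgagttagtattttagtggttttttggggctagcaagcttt
Ndc80: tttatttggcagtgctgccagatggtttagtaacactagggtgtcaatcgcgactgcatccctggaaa
Spc25: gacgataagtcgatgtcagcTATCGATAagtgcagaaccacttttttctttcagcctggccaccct
Cenp-C: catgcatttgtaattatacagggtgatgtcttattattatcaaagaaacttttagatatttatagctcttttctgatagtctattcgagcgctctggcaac
Nnf1b: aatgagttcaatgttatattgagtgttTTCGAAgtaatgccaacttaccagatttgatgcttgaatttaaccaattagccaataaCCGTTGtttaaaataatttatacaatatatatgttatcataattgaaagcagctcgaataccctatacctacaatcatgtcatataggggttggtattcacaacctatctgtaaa
cal1: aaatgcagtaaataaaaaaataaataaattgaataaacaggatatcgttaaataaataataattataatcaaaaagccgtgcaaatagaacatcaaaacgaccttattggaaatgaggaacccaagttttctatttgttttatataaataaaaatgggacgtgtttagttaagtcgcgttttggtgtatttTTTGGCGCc

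Of the 10 genes, 6 had a called Myb summit within 500 bp of their TSS, namely 5 of the 7 outer kinetochore genes and 1 of the 3 centromere chromatin genes. Over all protein-coding genes, 4966 of 13945 (35.6%) had one. A called peak is one of the 6100 that the submitters kept by the irreproducible discovery rate (IDR), a filter on agreement between replicates. Every one of them was also found in the pooled list with the same signal. They were the 6100 entries of highest signal there, so being called amounts to a cut on pooled signal. The pooled list holds 30000 entries and is labelled as peaks and background. An entry outside the called set therefore need not be a peak. The outer kinetochore share stood above the background share over all genes, and that of centromere chromatin, with 3 genes, was close to it. A neighbour that starts within 1 kb on the other strand and points away was found for 4 of the 7 and 1 of the 3. Over all genes with such a neighbour, described below, 60.1% were called. No test was made of either count or of their difference, because genes are not replicates. Peak lists carry no reads per peak, so depth is unknown and a missing peak means only that none was listed. The submitters' peaks were called against a control, by the labels' listing. No control precipitation and no measure of open chromatin was itself analysed here, and the part of either in these peaks was not tested.

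Peak signal spread over a wide range among the outer kinetochore genes. Spc105R and Nuf2 had signals about as high as each other and well above the rest, and Nnf1a, Ndc80 and Spc25 followed. Mis12 had only a low entry outside the called set, which need not be a peak, and Nnf1b had no promoter entry in any list. Signal is the submitters' own value per peak, on a scale they do not state. Called peaks had signals between 93.9 and 7447. Signal is compared here within a list, except where the replicates are set side by side. Those ratios use the values as deposited, without rescaling, and are read beside the median ratio over all called genes.

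Spc105R had the highest signal of the 10 genes, 2188 in the pooled list, 1150.1 in replicate 1 and 1038 in replicate 2. The peak ranked 81 of 6100 in the called set and 82 of 30000 in each replicate's list. Its summit lay 49 bp before the TSS, outside any gene, at 20800361 on 3L. The gene (FBgn0037025, 20800410 to 20806853, plus strand) has 1 annotated TSS. A weaker called summit, with a signal of 135, lay 164 bp after the TSS in the coding sequence. It was listed in replicate 2 (145) and not in replicate 1. Only 1.61% of the genes with a called promoter summit had a higher one than Spc105R.

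Nuf2, which encodes a subunit of the microtubule-binding Ndc80 complex, followed with 1985 in the pooled list, 989 in replicate 1 and 998 in replicate 2. Its ranks were 100 in the called set, 114 in replicate 1 and 92 in replicate 2. The summit lay 88 bp before the TSS, at 7065925 on 2L, also outside any gene (FBgn0031886, 7064431 to 7065837, minus strand). The signals of Nuf2 and Spc105R lay closer to each other than to that of any other member in all 3 lists. In the replicates their summits were 7 bp apart for either gene.

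The other subunits of the Ndc80 complex among the members, Ndc80 and Spc25, had called peaks of lower signal. Ndc80, which makes the main microtubule contact of the complex, had 345 in the pooled list, 182 in replicate 1 and 158 in replicate 2, with a called rank of 1388. Its summit was 19 bp before the TSS (FBgn0030500, X, 13609671 to 13612062, minus strand). Spc25, which anchors that complex to the Mis12 complex, had 233 in the pooled list, 97.2 in replicate 1 and 139 in replicate 2, with a called rank of 2280. Its summit was 86 bp before the TSS (FBgn0087021, 3R, 12961745 to 12963249, plus strand). Among the members, subunits of this complex therefore stood at ranks from 100 to 2280 in the called set.

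The Mis12 complex, which joins the Ndc80 complex and Spc105R to the centromere, held both a strong peak and genes without a called peak. Nnf1a had 654 in the pooled list, 334 in replicate 1 and 312 in replicate 2, with a called rank of 610 and the summit 36 bp before the TSS (FBgn0034523, 2R, 20586222 to 20587238, minus strand). Nnf1b, a paralog of Nnf1a, had no summit within 500 bp of its TSS in any of the 4 lists. Its nearest summit was 5420 bp away in the called and pooled lists, 1143 bp away in replicate 1 and 789 bp away in replicate 2 (FBgn0051658, 2L, 810577 to 811531, plus strand). The paralogs thus differed in the same direction in all lists, which are not independent. The TSS of HnRNP-K, on the other strand and pointing away, lies 313 bp from that of Nnf1a. The nearest such TSS to Nnf1b is 19779 bp away. The part of this neighbour in the difference was not tested.

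Mis12 itself had a pooled signal of 47.9, below the lowest called signal of 93.9, and a −log10 q of 0.86 in the submitters' column. In replicate 1 the −log10 q was 4.07, the highest value of that list, which 5858 of its 30000 entries share. In replicate 2 it was 0.52. Its pooled summit lay 52 bp before the TSS (FBgn0035725, 3L, 6968035 to 6969048, minus strand). In replicate 1 the signal was 49.3, with the summit 31 bp before the TSS and a rank of 5684 of 30000. In replicate 2 the strongest listed summit was elsewhere, 381 bp before the TSS, with a signal of 23.3. The replicates therefore did not share a summit at this promoter, and the nearest called summit was 4196 bp from the TSS.

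**Figure D1:**
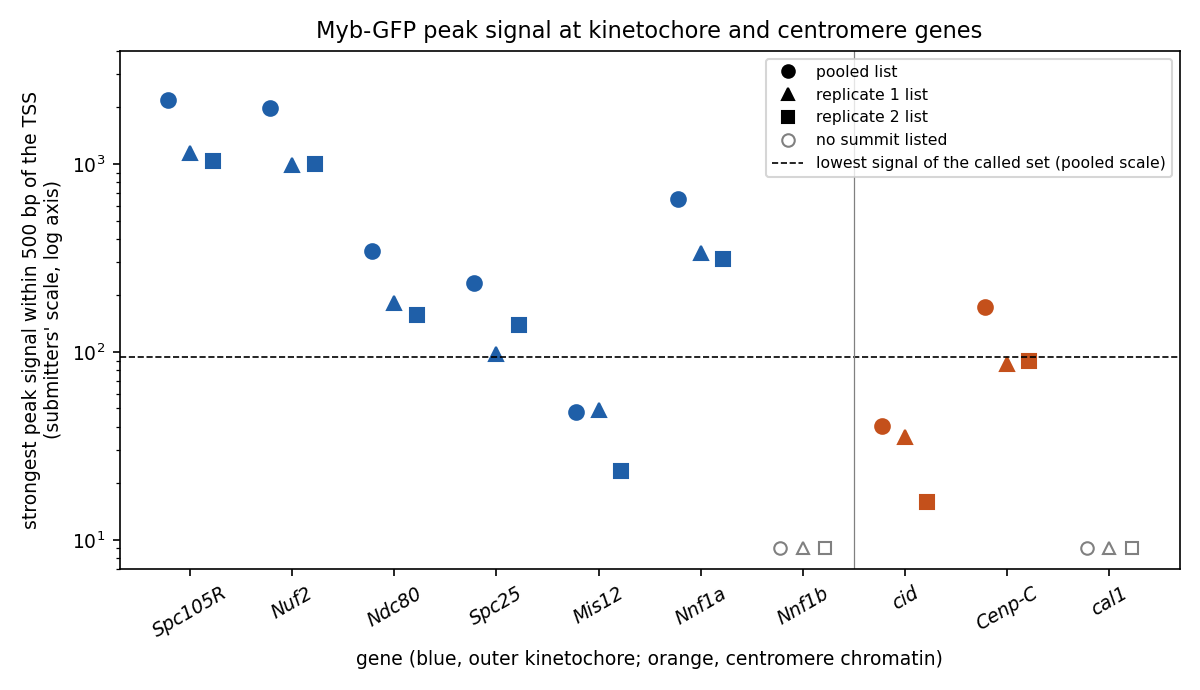
Strongest peak signal within 500 bp of the TSS for each of the 10 genes in the pooled list and in both replicates, on a log axis in the submitters' units. Open symbols mark genes with no listed summit, and the dashed line is the lowest called signal, 93.9, which applies to the pooled list. Spc105R and Nuf2 stand at the top in every list, and Nnf1b and cal1 have no summit in any.

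Among the centromere chromatin genes, Cenp-C had the only called peak. Cenp-C, the scaffold between centromeric nucleosomes and the outer kinetochore, had 174 in the pooled list, 85.8 in replicate 1 and 89.8 in replicate 2, with a called rank of 3237 (FBgn0266916, 3R, 8564105 to 8569248, plus strand). Of the genes with a called promoter summit, 63.7% had a higher signal. Its pooled summit lay 68 bp before the TSS, while the replicate summits lay 19 and 175 bp before it. The replicates agreed in signal here more closely than in position.

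cid, which encodes the centromeric histone, had no called summit within 500 bp, and its nearest one was 2333 bp from the TSS (FBgn0040477, 2R, 13485617 to 13486631, plus strand). In the relaxed lists its strongest summit had a signal of 40.5 in the pooled list, 35.3 in replicate 1 and 15.9 in replicate 2. These lay at different places, 375 bp before the TSS in the pooled list, 286 bp before it in replicate 1 and 223 bp after it in replicate 2. The pooled summit was in the coding sequence of the neighbouring gene cbc. The −log10 q of the strongest summit was 0.54 in the pooled list, 2.07 in replicate 1 and 0.14 in replicate 2, against highest values of 4.13, 4.07 and 3.95 in those lists.

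cal1, whose product loads Cid onto chromatin, had no summit within 500 bp in any list (FBgn0038478, 3R, 17088280 to 17091938, plus strand). The nearest was 7341 bp away in the called set, 2210 bp in the pooled list, 2059 bp in replicate 1 and 3066 bp in replicate 2. cal1 and Nnf1b were the members with no summit this close in any list. In the relaxed lists, 8 of the 10 members had a summit within 500 bp in each. Over all protein-coding genes the share was 59.1% in the pooled list, 59.1% in replicate 1 and 58.2% in replicate 2. The −log10 q fell to 0.08, 0.03 and 0.10 in these lists, so a listed summit need not be a peak.

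The median of the strongest pooled signal was 345 over the 7 outer kinetochore genes and 40.5 over the 3 centromere chromatin genes. A gene without a summit was counted as lowest. The centromere chromatin median is in each list the value of cid, whose summits lay at different places. Over all protein-coding genes the median was 42.4. In replicate 1 the medians were 182, 35.3 and 20.9 in the same order, and in replicate 2 they were 158, 15.9 and 23.3. The order of the first pair was the same in all 3 lists, which are not independent, since the pooled list holds the reads of both replicates. The groups overlapped, because Cenp-C stood above Mis12 and Nnf1b in every list. Among the members with a called peak, Cenp-C had the lowest signal in the pooled list and in both replicates.

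The replicates gave similar signals at the called members and less similar ones at the uncalled entries of Mis12 and cid. The ratio of replicate 1 to replicate 2 was 1.11 at Spc105R, 0.99 at Nuf2, 1.15 at Ndc80, 1.07 at Nnf1a and 0.96 at Cenp-C. It was 0.70 at Spc25, and it was 2.11 at Mis12 and 2.22 at cid. Over the 4948 called genes with a summit in both replicates the median ratio was 1.06, and the range from the lowest 10% to the highest 10% ran from 0.78 to 1.45. The called members lay within that range except Spc25, which was higher in replicate 2.

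**Figure D2:**
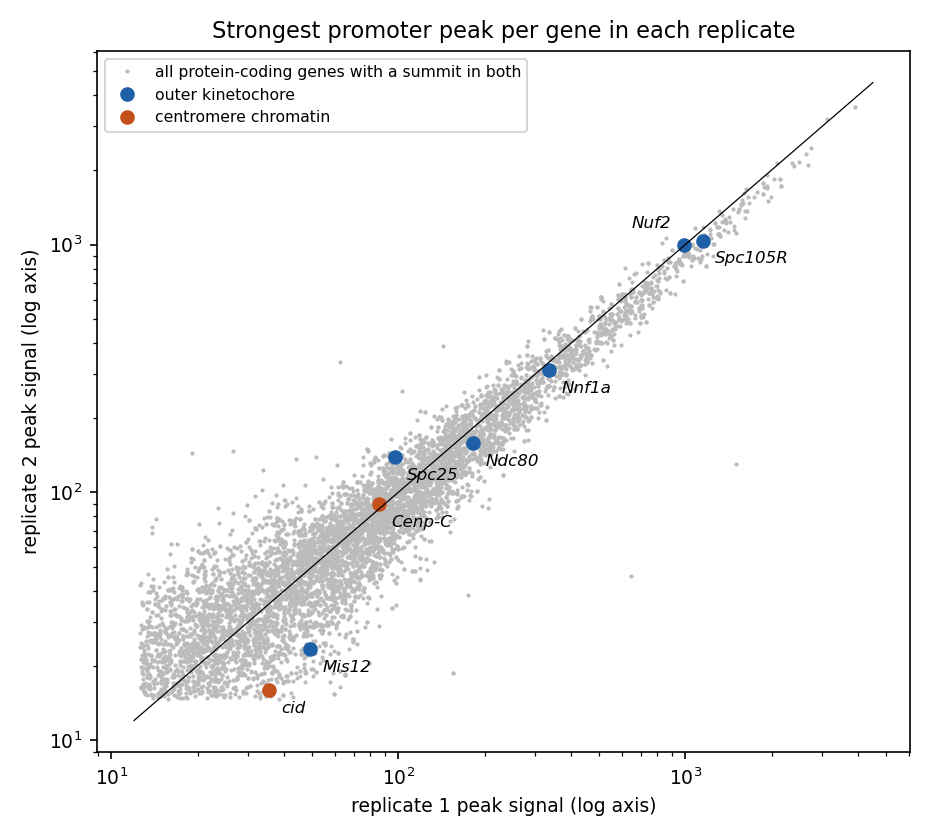
Strongest promoter peak signal per gene in replicate 1 (x) against replicate 2 (y), both on log axes in the submitters' units, with the line of equality. Grey points are all protein-coding genes with a summit in both lists. The called members lie near the line, and Mis12 and cid lie below it, at ratios of 2.11 and 2.22.

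All 6 called members had their strongest summit upstream of the TSS, between 19 and 88 bp from it, with a median distance of 58.5 bp. Over the 4966 called genes the median was 80.0 bp and 87.2% were upstream, so the upstream position of the members was close to the usual one. Between replicates the strongest summit moved by 7 bp at Spc105R and Nuf2, 12 bp at Ndc80, 24 bp at Nnf1a, 46 bp at Spc25 and 156 bp at Cenp-C. Over all called genes the median move was 20.0 bp, and 79.5% of genes moved by at most 50 bp. It was 350 bp at Mis12 and 509 bp at cid, neither of which has a called peak. Moves over 300 bp were found in 2.1% of called genes.

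**Figure D3:**
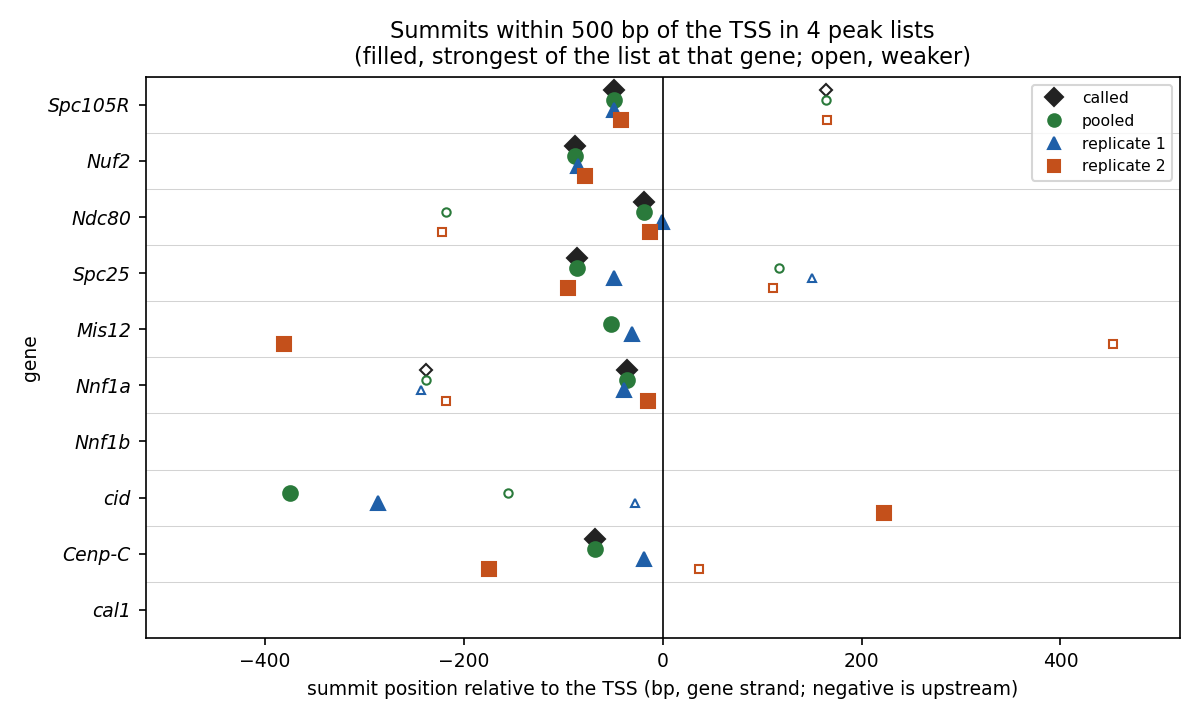
Positions of all summits within 500 bp of the TSS of each member in the called, pooled, replicate 1 and replicate 2 lists, in bp along the gene strand with upstream negative. Filled symbols are the strongest summit of a list at that gene and open ones are weaker. At the 5 called outer kinetochore genes the filled symbols lie within 46 bp of each other between replicates, while those of Mis12 and cid are scattered.

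Several members share their promoter with a gene on the other strand, so the peak cannot be given to either gene alone. A divergent TSS of a protein-coding gene lay within 1 kb for Ndc80 (BthD, a selenoprotein gene, 69 bp away), Spc25 (grsm, 102 bp), Nnf1a (HnRNP-K, which encodes an RNA-binding protein, 313 bp), Mis12 (CG9953, 610 bp) and cid (cbc, 226 bp). Genome-wide, 60.1% of genes with such a neighbour had a called summit, against 21.7% of genes without one. By this grouping 3 of the 5 divergent members were called, close to that background share. Such a neighbour was found for 4 of the 7 outer kinetochore genes and 1 of the 3 centromere chromatin genes. Over all genes with one, the median pooled signal was 127, against 42.4 over all protein-coding genes. Its part in the difference between the group medians was not tested. Of the 5 members without a divergent neighbour, Spc105R, Nuf2 and Cenp-C were called and Nnf1b and cal1 were not.

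The distances place some of these peaks nearer to the neighbour. The Spc25 summit was 16 bp before the grsm TSS and 86 bp before that of Spc25, and it lay in an intron of a longer grsm transcript. The Ndc80 summit lay 19 bp before the Ndc80 TSS and 50 bp before that of BthD. At Nnf1a there were 2 called summits. The stronger, with 654, was 36 bp before the Nnf1a TSS and 277 bp before that of HnRNP-K. The weaker, with 268 in the pooled list, 142 in replicate 1 and 143 in replicate 2, was 238 bp before Nnf1a and 75 bp before HnRNP-K. The strongest peaks, at Spc105R and Nuf2, had no divergent protein-coding TSS nearer than 2035 and 2146 bp. The Cenp-C summit had the start of a noncoding antisense RNA gene, asRNA:CR44291, 239 bp away, and its nearest divergent protein-coding TSS, that of mRpS18A, was 1512 bp off.

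The sequence words were unevenly spread over these promoters. Spc105R held a CHR word 108 bp and a Myb site 99 bp before the TSS, with 3 bases between them, which are the 2 capitalised words of its sequence above. It held another CHR word 36 bp after the TSS. Nuf2 held a Myb site, read on the other strand as CCGTTA, 162 bp before the TSS and 74 bp from the summit. Spc25 held the DREF site 81 bp before its TSS, with its first base 5 bp from the summit. No searched word was found within 100 bp of the summits of Ndc80 or Cenp-C. Cenp-C held a CHR word farther off, 170 bp before the TSS and starting 102 bp from the summit. CHR words also started 34 bp after the TSS at Nuf2 and 39 bp after it at Nnf1a.

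Words were also found where no peak was called. Nnf1b had a CHR word 173 bp and a Myb site closer to its TSS, both in capitals above, and no summit in any list. Mis12 had a CHR word 216 bp and a Myb site 166 bp before the TSS. cal1 had an E2F word starting 9 bp before the TSS. cid had CHR words 392 and 38 bp before the TSS, the first of them starting 17 bp from its strongest pooled summit. Of the 8 members with a pooled summit, cid was the only one with a CHR word within 50 bp of it. The CHR and Myb words were thus present at promoters both with and without a called peak.

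Within 50 bp of the summit, 0 of the 6 called members held a CHR word and 1, Spc105R, held a Myb site. Of the 4359 called summits within 500 bp of a TSS, 23.1% held a CHR word and 10.9% a Myb site in windows of the same length. Within 100 bp of the summit, 2 of the 6 held CHR (Spc105R and Nnf1a) and 2 held a Myb site (Spc105R and Nuf2), against 44.9% and 19.7%. Within 50 bp, the DREF word was in 1 of the 6, against 8.21%, and the E2F word in 0 of 6, against 2.32%. From 250 bp before to 50 bp after the TSS, CHR was in 7 of all 10 members and in 46.5% of 19253 protein-coding promoters, and the Myb site in 4 of 10 and 16.8%. The same window held an E2F word in 1 of 10 members and 6.77% of promoters, and a DREF word in 1 of 10 and 7.98%. With so few members these counts are a description of their letters.

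Of 16 further kinetochore and centromere genes, 12 had a called summit, against 35.6% of all protein-coding genes. Since 14 of the 16 have a divergent neighbour within 1 kb, the share of 60.1% over genes with such a neighbour is the nearer background. As with the members, a summit near the TSSs of both genes cannot be given to either gene alone. Both other KMN subunits were called, Kmn2 with 217 in the pooled list, 100.8 in replicate 1 and 120.05 in replicate 2, and Kmn1, the fly Nsl1 protein of the Mis12 complex, with 108, 71.8 and 41.4. Their pooled signals were below those of every called outer kinetochore member above, and that of Kmn1 was close to the lowest called signal. The median pooled signal over all 16 was 206, against 42.4 over all protein-coding genes and 127 over those with a divergent neighbour.

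The fibrous corona recruits checkpoint proteins and motors to kinetochores without attached microtubules. Of its genes and those of the CENP-E kinesins, 5 of 6 were called. All 6 have a divergent neighbour, where the background share is 60.1%. The rod summit lay 199 bp before the rod TSS, and the pygo TSS is 252 bp from the rod TSS. The Zw10 summit lay 210 bp before the Zw10 TSS, and the Klp3A TSS is 145 bp from the Zw10 TSS. Zw10 had 350.3, cmet, a CENP-E kinesin gene, 309, Zwilch 303, rod 285 and Spindly, an adaptor for dynein, 194, all in the pooled list. Signals in replicates 1 and 2 were 198 and 148 at Zw10, 149 and 160.3 at cmet, 148 and 163 at Zwilch, 149.8 and 136 at rod, and 125 and 79.0 at Spindly. These 5 lay within a narrower range than the outer kinetochore members. The exception was cana, the other CENP-E kinesin gene, whose first TSS lies head to head with that of cmet. Its strongest summits were at internal TSSs, with 50.6 in the pooled list, 29.8 in replicate 1 and 16.3 in replicate 2. A weaker replicate 1 summit, with 26.7, lay 10 bp after the first TSS. The nearest called summit, that of cmet, was 693 bp from the first cana TSS.

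Of 8 genes for partners of centromere chromatin, 5 were called. As 6 of the 8 have a divergent neighbour, this is close to the background share of 60.1% for such genes. The highest pooled signals were those of rdx, a cullin adaptor gene, with 534 (252 and 281 in the replicates), and of Caf1-55, a histone chaperone gene, with 437 (231 and 205). The rdx summit lay 343 bp before an internal TSS. Hmr had 227, Ppa 140.2 and Nlp, the nucleoplasmin-like histone chaperone gene, 128. The Hmr summit lay 247 bp before the Hmr TSS, and the divergent TSS of CG2124 is 267 bp from the Hmr TSS. The genes without a called summit were mei-S332, the shugoshin gene that protects centromeric cohesion, with a pooled signal of 60.5, Lhr with 47.7 and HP6, with no summit in any list. Genes of centromere chromatin and its partners together thus held both called and uncalled promoters.

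**Figure D4:**
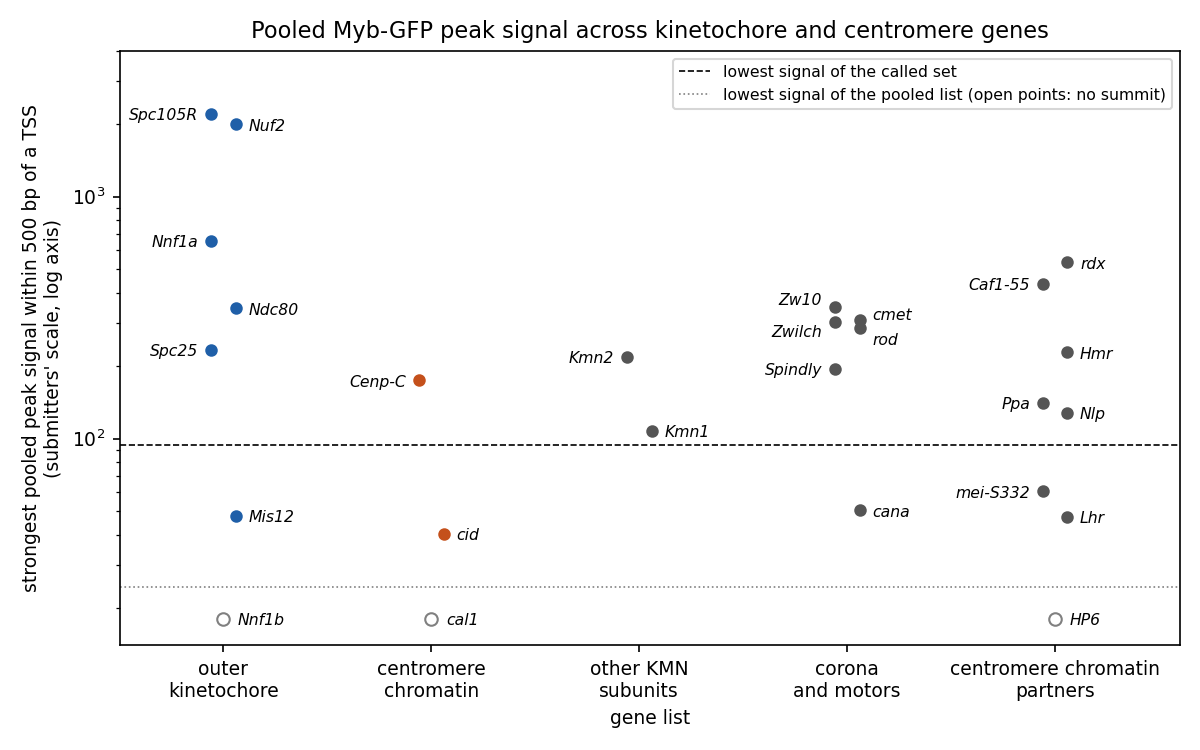
Strongest pooled peak signal within 500 bp of a TSS for the members and for 16 further genes, grouped by list, on a log axis in the submitters' units. Open points are genes with no summit, drawn below the lowest signal of the pooled list, 24.4. The dashed line is the lowest called signal, 93.9. Spc105R and Nuf2 stand above all other genes shown.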

How the data were processed

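Myb-GFP was precipitated from embryo chromatin of 2 biological replicates. Among the 4 dm6 narrowPeak lists used are, by the labels' listing, relaxed calls for each replicate and for the pooled alignments against a control. The other is the called set that IDR selected from them. The relaxed lists hold 30000 entries each, and the pooled one is labelled as peaks and background. The signal deposited by the authors is their peak caller's value, and the −log10 q deposited beside it was used only for uncalled members. The sources used here do not give the aligner, the peak caller or any version. Lists on dm3 were not used.

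Summits were the interval start plus the deposited offset, written 1-based, and 96 called entries that repeat an interval were kept. TSSs were all transcript starts of the Ensembl BDGP6 annotation (23581 positions, transposable elements left out) on 6 chromosome arms, which match the RefSeq Release 6 sequence read for words. The strongest summit within 500 bp of any TSS was taken per gene and list (Python 3.11.15, pandas 2.3.3), a step tested on simulated data with 200 planted summits.

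The members and gene lists were chosen with earlier results of these data known, so counts and medians stand beside those of all protein-coding genes, with no test. Named are all members, genes sharing a member's summit and all 16 further genes; the rule had asked for fewer of the last, and naming the others, and the word windows at TSSs, was decided after values were seen. Other windows, TSS sets and peak lists were tried, and a summit among the strongest of both replicates was added after seeing the data.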

Additional observations from a re-analysis of the deposited data

How the results depend on the processing

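The same 6 members were called with windows of 250 or 1000 bp, with 1 TSS per gene, with 1 summit per interval and when a summit was required among the strongest 6100 of both replicates. Leaving out 1 replicate gave 6 to 7 members, 5 to 6 outer kinetochore genes, 1 centromere chromatin gene, and 33.9% to 36.5% of all genes. Mis12 was added without replicate 2. These counts rest on the stronger entries of the remaining replicate's own list, because the called set was made from both replicates. With the 3050 stronger called peaks, 5 outer kinetochore and 0 centromere chromatin genes remained (Cenp-C was lost) and 21.6% of all genes. With the whole relaxed pooled list, Mis12 and cid were added, giving 6 outer kinetochore and 2 centromere chromatin genes and 59.1% of all genes. The centromere chromatin median signal was 27.4 with a 250 bp window, which leaves out the stronger cid summit; the outer kinetochore median stayed at 345. The number of reads is unknown, which limits what a missing peak can show. No paired analysis was possible because the series holds 1 group.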
